A study of Mus musculus with 10 samples.

Results

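Apolipoproteins are the protein parts of the particles that carry fat and cholesterol in blood, and 10 of their genes were followed here in the liver of lactating mice: Apoa1, Apoa2, Apoa4, Apoa5, Apob, Apoc1, Apoc2, Apoc3, Apoc4 and Apoe. They were taken as every probe set of the array, the group of short probes that reads a transcript, whose annotation gives exactly 1 of these symbols. This gave 15 probe sets of 45037 tested, for 10 of 18193 named genes, and each of the 10 genes had at least 1. QSi5 mice, an inbred strain, were fed from pregnancy until lactation peaked. In 5 of them the food had a high glycaemic index (HGI), with glucose making up 51.4% of its weight and an energy content of 15.6 MJ/kg. In the other 5 it had a low glycaemic index (LGI), with the starch Hi-Maze in the place of glucose at 51.4% and 16.3 MJ/kg. The labels give no age. The labels give a positive energy balance for each HGI mouse and a negative one for each LGI mouse, so diet and energy balance cannot be told apart. No group without either diet was measured, and 1 array was run per mouse.

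The liver makes most of these proteins. Apob is the large structural protein that stays with a particle for its lifetime, while the smaller exchangeable apolipoproteins (the A, C and E members) move between particles. Apoa1 and Apoa2 are the main proteins of high-density lipoprotein (HDL), Apoe binds hepatic receptors that clear remnants, Apoc2 activates lipoprotein lipase, Apoc3 and Apoc1 oppose lipolysis and uptake, and Apoa5 favours the clearance of triglyceride. Apoa4 is made in the intestine and, in mice, also in the liver, and is carried on chylomicrons and HDL.

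Values are RMA values on the log2 scale, so that 1 unit is a 2-fold difference, and differences are HGI minus LGI. A brightness ranks probe sets and not transcripts, since probes differ in binding. All 10 genes gave strong signal: at its brightest probe set each lay at or above percentile 99.469 of all probe sets, and 10 of the 15 probe sets were among the 100 brightest. Alb and Ttr, the 2 brightest of 6 hepatocyte markers measured, stood at 14.69 and 14.27 in HGI and at 14.69 and 14.24 in LGI. Alb ran from 14.65 to 14.71 over all mice, as did the brightest probe sets of the arrays, so it had little room to differ. Correlations between arrays ran from 0.986 to 0.996. Array HGI 1 had the narrowest spread of values (SD 2.16, against 2.25 to 2.31 in the others). Over the 18193 named genes HGI 1 was the highest or lowest of the 10 mice at 39.6% and LGI 4 at 28.2%, against 12.5% to 24% for the other mice. LGI 4 stood apart at several lipoprotein genes, described further on. Those of the 10 genes at which it was an extreme at the brightest probe set are given with and without it.

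Apoa4 was the single gene of the 10 called higher in HGI. At its brightest probe set (1436504_x_at) the HGI mice read 13.43, 13.36, 13.49, 13.77 and 13.84, in the order of their numbers. The LGI mice read 12.53, 12.98, 12.77, 12.64 and 12.71 at the same probe set. The lowest HGI mouse lay above the highest LGI mouse, so the diets did not overlap. The means were 13.58 ± 0.21 in HGI and 12.73 ± 0.17 in LGI (SD, n = 5), a difference of 0.85 ± 0.11 (SE), or 1.80-fold with a 95% interval of 1.52 to 2.14 (limma, adjusted p = 0.0211 over all probe sets).

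The other Apoa4 probe set (1417761_at) showed the same separation. HGI mice read 12.79, 12.94, 12.94, 13.28 and 13.31, and LGI mice 11.94, 12.29, 12.03, 11.69 and 11.89. Again no LGI mouse reached the lowest HGI mouse. The difference was 1.08 ± 0.13 (SE), 2.12-fold with a 95% interval of 1.75 to 2.57 (limma, adjusted p = 0.0126), and by p-value this probe set ranked 4 among 45037. HGI 5 was the highest HGI mouse and LGI 2 the highest LGI mouse at both probe sets, while the lowest LGI mouse was LGI 1 at the brighter and LGI 4 at the dimmer. The suffix x marks a probe set with probes that also match other transcripts, and the dimmer set does not carry it. The dimmer set gave the larger difference by 0.23, which did not pass a two-sided exact permutation test (p = 0.0159, adjusted p = 0.0794 over 5 pairs of probe sets of a gene).

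Of the 15 probe sets 2 were called higher, both of Apoa4, where 0.0377% of all probe sets were called higher. 0 were called lower by limma (0 at an unadjusted p under 0.05), where 0.0266% of all were. The diets did not overlap at the same 2 probe sets, against 1.67% of all probe sets. The call at the brighter Apoa4 probe set was lost when HGI 4, HGI 5, LGI 3 or LGI 5 was left out (differences of 0.80, 0.79, 0.86 and 0.85, limma adjusted p = 0.0522, 0.0540, 0.0757 and 0.0868). At the dimmer one it was lost only without LGI 5 (1.07, limma adjusted p = 0.0533). Without LGI 4 both held, at 0.83 (limma adjusted p = 0.0335) and 1.01 (limma adjusted p = 0.0140).

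**Figure D1:**
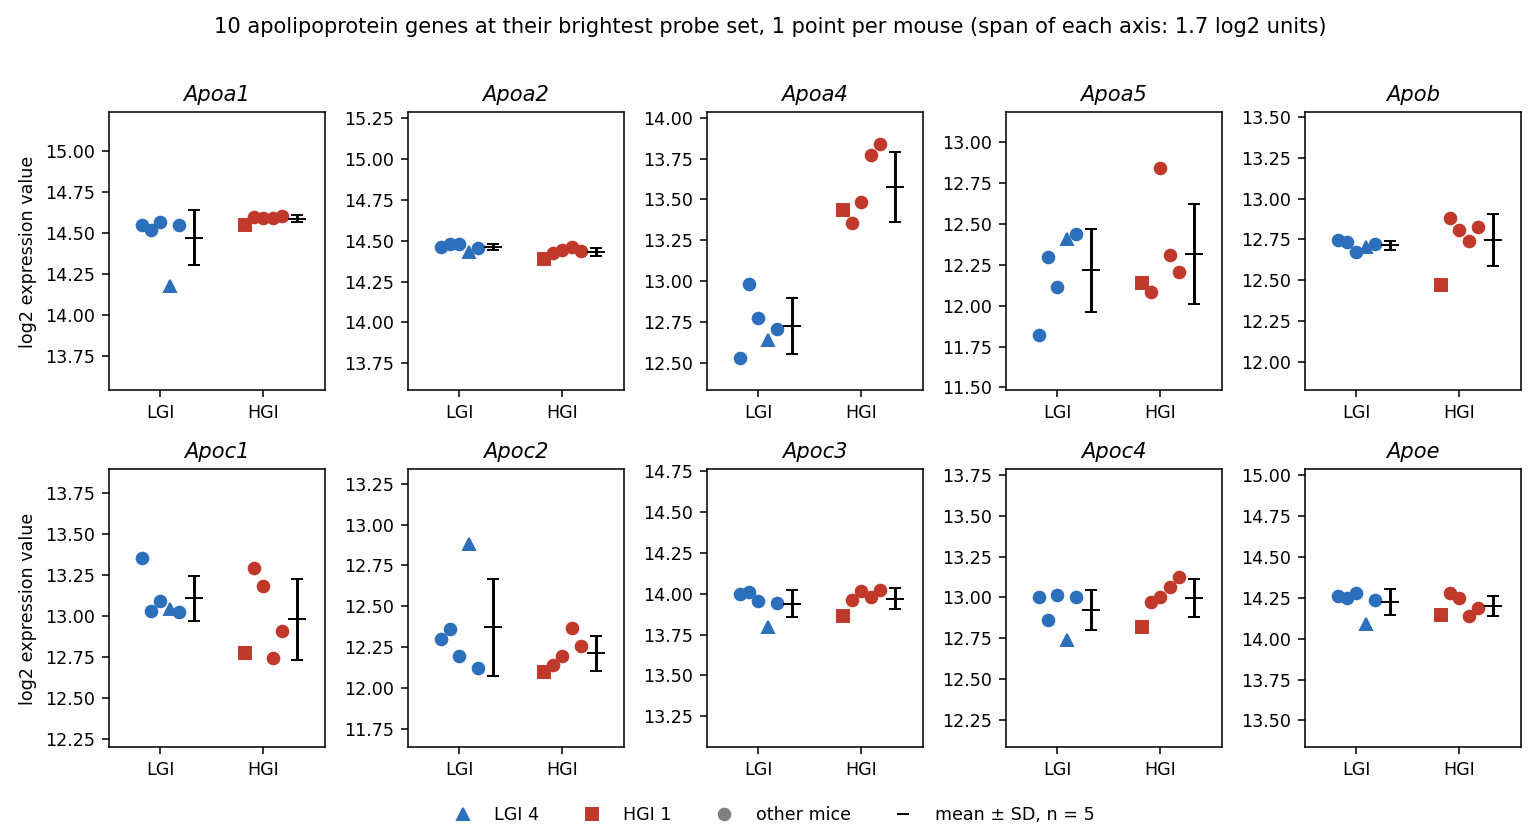
Log2 expression value of each mouse (1 point) for 10 apolipoprotein genes at their brightest probe set, LGI left and HGI right, with the mean and SD of 5 mice beside the points; every axis spans the same number of log2 units. Apoa4 separates the diets (12.53 to 12.98 in LGI, 13.36 to 13.84 in HGI), and the other 9 genes overlap.

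The remaining 9 genes did not pass the test. At their brightest probe sets their differences ran from -0.16 to 0.11, with 5 above and 4 below 0. Over all 10 genes the median difference was 0.03, beside -0.03 over all named genes and -0.04 over those with a mean of at least 6. The median size of a difference was 0.09, beside 0.08 over all named genes. Over the 310 probe sets with a mean of 12 or more, which are as bright, it was 0.10. All 9 overlapped between diets, and each difference is given with its 95% interval on the scale of the signal.

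Of the HDL proteins, Apoa1 read 14.55, 14.60, 14.59, 14.59 and 14.60 in HGI and 14.55, 14.52, 14.57, 14.17 and 14.55 in LGI. LGI 4 alone lay low, and the other 9 mice stayed within 14.52 to 14.60. The difference was 0.11 (95% interval -0.07 to 0.30, limma adjusted p = 0.829), and 0.04 without LGI 4 (limma adjusted p = 0.945). The 3 further Apoa1 probe sets gave 0.10, 0.11 and 0.13, and 0.03, 0.03 and 0.05 without LGI 4. Apoa2 had the smallest range of the 10 genes over all mice, from 14.39 to 14.48, and a difference of -0.03 (95% interval -0.17 to 0.11, limma adjusted p = 0.957). The brightest Apoa1 probe set lay within 0.05 to 0.48 of the brightest probe set of its array, which left little room above it. The gaps were 0.22 to 0.31 for Apoa2 and 0.42 to 0.57 for Apoe. Whether a ceiling narrowed these differences and their intervals was not tested.

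Of the particle's structural protein, Apob, the bright probe set read 12.47 to 12.88 in HGI and 12.67 to 12.74 in LGI. The HGI mice were the more spread (SD 0.16 against 0.03), with HGI 1 the lowest. The difference was 0.03 (95% interval -0.15 to 0.22, limma adjusted p = 0.969), and 0.10 without HGI 1 (limma adjusted p = 0.711). A second Apob probe set, over 2 units dimmer, varied far more between mice, from 8.42 to 10.40 in HGI and from 8.97 to 10.45 in LGI. Its lowest mouse was number 5 in each diet. Its difference was -0.31 (95% interval -1.03 to 0.41, limma adjusted p = 0.896), and it did not differ from that of the bright one by the exact permutation test (two-sided p = 0.460, adjusted p = 0.575).

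Of the members that act on lipoprotein lipase, Apoc2, its activator, read 12.10, 12.14, 12.20, 12.36 and 12.26 in HGI and 12.30, 12.36, 12.20, 12.88 and 12.12 in LGI. Here LGI 4 was the highest of all mice. The difference of -0.16 (95% interval -0.44 to 0.11, limma adjusted p = 0.837) became -0.03 without that mouse (limma adjusted p = 0.964). Apoc3, which inhibits the lipase, ranged over 13.86 to 14.02 in HGI and 13.80 to 14.01 in LGI, a difference of 0.03 (95% interval -0.13 to 0.19, limma adjusted p = 0.963), and of -0.0042 without LGI 4 (limma adjusted p = 0.996). Apoa5 read 12.14, 12.08, 12.84, 12.31 and 12.21 in HGI and 11.82, 12.30, 12.12, 12.41 and 12.44 in LGI. HGI 3 was the highest and LGI 1 the lowest. Its difference was 0.10 (95% interval -0.23 to 0.43, limma adjusted p = 0.936), the widest interval of the brightest probe sets.

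Of the members tied to remnant uptake, Apoe lay within 14.14 to 14.28 in HGI and 14.09 to 14.28 in LGI, a difference of -0.02 (95% interval -0.18 to 0.13, limma adjusted p = 0.971), and of -0.06 without LGI 4 (limma adjusted p = 0.915). Apoc1 read 12.74 to 13.29 in HGI and 13.02 to 13.35 in LGI, a difference of -0.13 (95% interval -0.38 to 0.13, limma adjusted p = 0.872). Apoc4, a minor protein of very-low-density lipoprotein, read 12.82 to 13.13 in HGI and 12.74 to 13.01 in LGI, a difference of 0.07 (95% interval -0.11 to 0.26, limma adjusted p = 0.908), and of 0.03 without LGI 4 (limma adjusted p = 0.971).

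**Figure D2:**
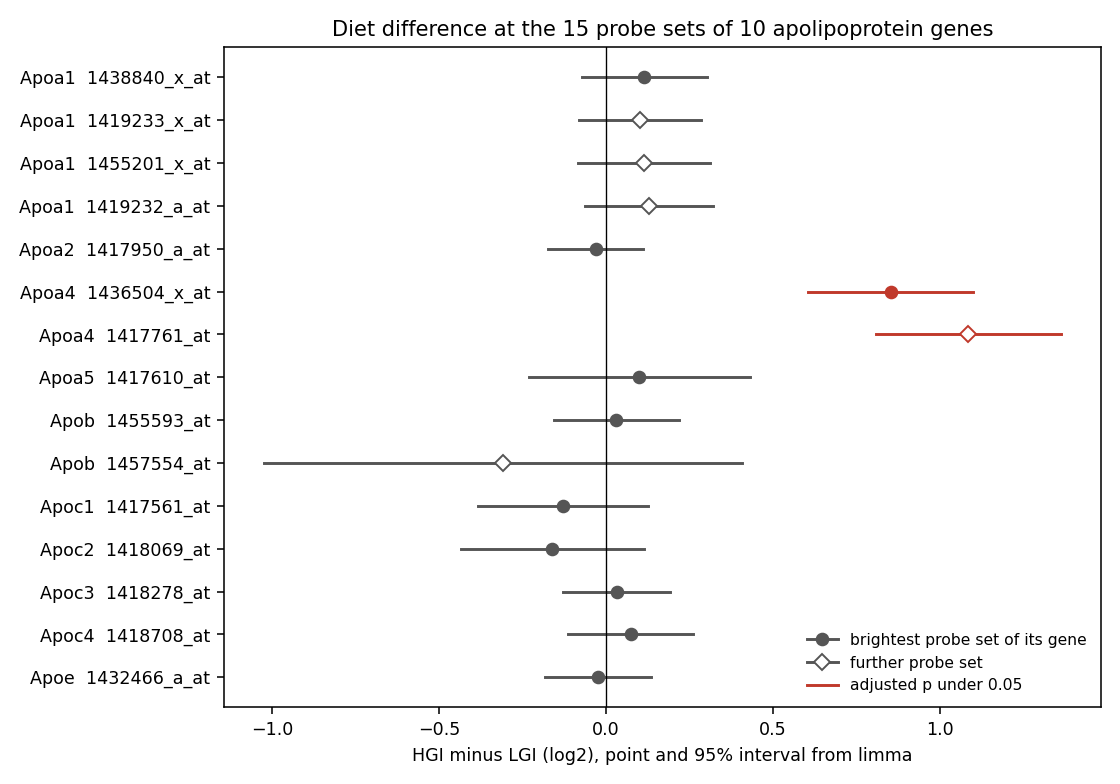
Difference HGI minus LGI on the log2 scale (x axis) with its 95% interval from limma, at each of the 15 probe sets (y axis); filled circles are the brightest probe set of a gene and open diamonds the further ones. The 2 Apoa4 probe sets stand at 0.85 and 1.08, and the intervals of the other 13 include 0.

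The genes lie in 2 clusters and 2 single places. Per RefSeq (GRCm38.p6), Apoa1, Apoc3, Apoa4 and Apoa5 follow each other on chromosome 9 with no other protein-coding gene between them, and so do Apoc2, Apoc4, Apoc1 and Apoe on chromosome 7. Apoa2 is on chromosome 1 and Apob on chromosome 12. Whether neighbours differed in their response was tested on the difference between 2 genes within each mouse, which removes the unequal brightness of probes, in 12 pairs by two-sided exact permutation over the 10 mice. The smallest p this test can give is 0.00794.

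Within the chromosome 9 cluster, Apoa4 differed from 2 of its neighbours in its diet difference. Its difference exceeded that of Apoa1 by 0.74 and that of Apoc3 by 0.82 (exact permutation p = 0.00794 and adjusted p = 0.0476 for each), and in neither comparison did the diets overlap. That adjusted value is the smallest that 2 of 12 pairs at the lowest p can give. The 2 comparisons share the Apoa4 values and are not separate observations. These are differences of signal: Apoa1 lay within 0.05 to 0.48 of the brightest probe set of its array and Apoc3 within 0.63 to 0.85, so Apoa1 had little room to read higher in HGI, and its part in the excess was not tested. Against Apoa5 the excess was 0.75 and did not pass (exact permutation p = 0.0317, adjusted p = 0.127). That excess passed without HGI 3, the mouse with high Apoa5 (0.91, exact permutation adjusted p = 0.0317). The pairs Apoa1 with Apoc3, Apoa1 with Apoa5 and Apoc3 with Apoa5 gave 0.08, 0.01 and -0.07. In the chromosome 7 cluster the 6 pairs ran from -0.20 (Apoc1 minus Apoc4) to 0.23 (Apoc4 minus Apoc2), with exact permutation adjusted p-values from 0.381 to 0.944. Without both HGI 1 and LGI 4, Apoa4 exceeded Apoa1 by 0.82 and Apoc3 by 0.84 (exact permutation adjusted p = 0.171 for each, the smallest that 2 of 12 pairs at the lowest p of 4 against 4 mice, 0.0286, can give).

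**Figure D3:**
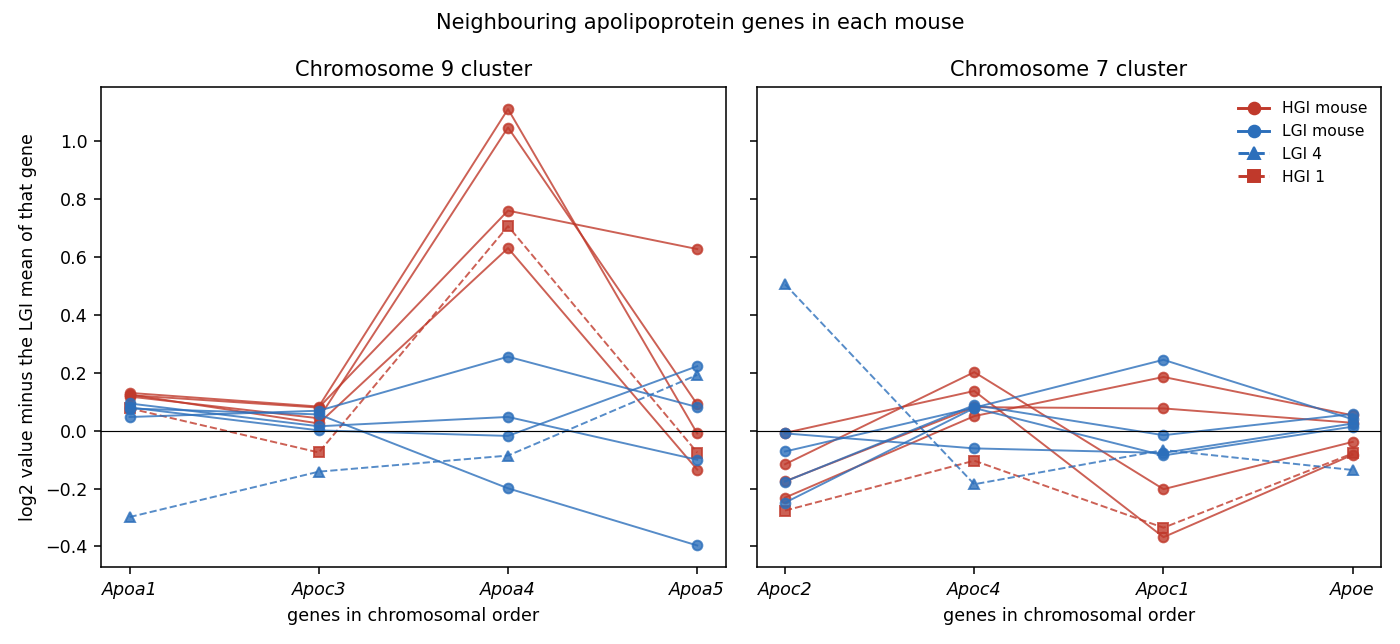
Log2 value of each mouse minus the LGI mean of the gene (y axis) along the genes of the chromosome 9 cluster (left) and chromosome 7 cluster (right); each line is 1 mouse. HGI mice leave the LGI mice at Apoa4 alone, and LGI 4 is lowest at Apoa1 and highest at Apoc2.

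The stretches upstream of 3 genes of the chromosome 9 cluster are shown because the neighbours Apoa1, Apoa4 and Apoa5 stood at 0.11, 0.85 and 0.10. Each is the 250 bases before the RefSeq start (GRCm38.p6, plus strand), 5′ to 3′, and Apoc3 is not in the table used. Capitals mark matches, on either strand, to 4 motifs: AGGTCA (the half-site of nuclear receptors), CAAAGTNCA (a form of the element that HNF4 binds, where N is any base), CACGTG (the E-box) and TATAAA (the TATA box). The stretches are chr9:46228380-46228629 for Apoa1, chr9:46240594-46240843 for Apoa4 and chr9:46268358-46268607 for Apoa5.
Apoa1: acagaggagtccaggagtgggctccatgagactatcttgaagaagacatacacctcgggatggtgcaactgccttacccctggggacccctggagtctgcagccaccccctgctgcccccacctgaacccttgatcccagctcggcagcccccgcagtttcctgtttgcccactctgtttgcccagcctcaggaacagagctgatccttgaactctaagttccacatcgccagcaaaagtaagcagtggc
Apoa4: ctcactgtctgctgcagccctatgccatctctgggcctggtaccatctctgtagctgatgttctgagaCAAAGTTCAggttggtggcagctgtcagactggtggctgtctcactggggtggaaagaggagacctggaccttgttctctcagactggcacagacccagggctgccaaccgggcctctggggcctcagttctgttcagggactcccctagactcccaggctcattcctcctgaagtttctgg
Apoa5: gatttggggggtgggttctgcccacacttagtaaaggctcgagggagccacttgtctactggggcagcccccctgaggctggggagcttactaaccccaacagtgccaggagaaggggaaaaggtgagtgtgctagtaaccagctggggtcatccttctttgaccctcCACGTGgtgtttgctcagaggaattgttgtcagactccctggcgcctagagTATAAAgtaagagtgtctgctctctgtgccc

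In these windows Apoa4 held 1 match to CAAAGTNCA, starting 182 bases before the start, and none to the other motifs. Apoa5 held 1 CACGTG and 1 TATAAA, starting 82 and 31 bases before the start, and Apoa1 held none of the 4. The table held 12 windows for 8 of the 10 genes, all but Apoc1 and Apoc3, and 32851 windows for 27025 genes in all, so that these 8 genes had more windows per gene. A gene was counted where any of its windows matched. CAAAGTNCA matched 1 of these 8 genes and 1.4% of all genes (1.19% of windows), and CACGTG 1 gene and 6.86% (6.02% of windows). AGGTCA matched 3 genes (Apoa2, Apoc2 and Apoc4) and 15.8% of all genes (14% of windows), and TATAAA 4 genes (Apoa2, Apoa5, Apob and Apoe) and 14.3% (12.4% of windows). The TATAAA matches started 212 bases before the start in Apoa2, 60 in Apob, and 100 and 96 in Apoe. In a second Apoa5 window the match started at 56. Whether any of them acts as a TATA box was not tested. The motifs were chosen with these sequences in view. A match is a string of letters and was not tested as a binding site. Other forms of these elements were not searched, so a window without a match, such as that of Apoa1, can still hold them.

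Mouse LGI 4 lay outside the other mice at many lipoprotein genes. Serum amyloid A proteins, which ride on HDL in the acute phase, were far higher there: Saa1 read 13.93, against 6.69 to 10.48 in the HGI mice and 6.80 to 8.28 in the other LGI mice. Saa2 read 14.37 against 5.32 to 9.16 in the other 9 mice, and Saa4, the constitutive form, 13.24 against 10.58 to 11.26. Pon1, the HDL-bound paraoxonase, was the reverse, at 12.11 against 12.94 to 13.22. Of the 10 apolipoprotein genes, 5 lay outside the range of the other 9 mice in LGI 4, where 28.2% of all named genes did. Apoa1, Apoc3, Apoc4 and Apoe were the lowest, at -0.39, -0.18, -0.26 and -0.16 from the median of the other 9, and Apoc2 was the highest, at 0.68. Apoa4, Apoa2, Apoa5, Apob and Apoc1 stayed inside that range at their brightest probe sets. There Apoa4 in LGI 4 (12.64) fell between the other LGI mice (12.53 to 12.98). At the dimmer Apoa4 probe set LGI 4 was the lowest of all mice (11.69, next 11.89). At the dimmer Apob probe set it was the highest (10.45, next 10.40). Of further lipoprotein proteins, Apon (12.38 against 11.28 to 11.85) and Clu (13.55 against 12.81 to 13.16) were higher in LGI 4 than in any other mouse, and Apom, an HDL protein, was lower (12.44 against 12.62 to 12.97). Among the 9 mice other than LGI 4, HGI 1 was the highest at Saa1 (10.48), Saa2 (9.16), Saa4 (11.26) and Apon (11.85). It was the lowest of the 9 at Pon1 (12.94), Apom (12.62), Apoc3 (13.86) and Apoc4 (12.82), the same direction as LGI 4 at these 8 genes. At Apoc2, where LGI 4 was the highest, HGI 1 was the lowest (12.10). At Clu, Apoa1 and Apoe, where LGI 4 also lay outside, HGI 1 was no extreme of the 9 (12.94, 14.55 and 14.15). Over all named genes HGI 1 was the highest or lowest of the 10 mice at 39.6%. Its share of extremes among the 9 mice was not counted and cannot be lower than that. The further genes of this paragraph were named after their values were seen. Their link with the apolipoprotein genes in LGI 4 and HGI 1 was not tested.

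**Figure D4:**
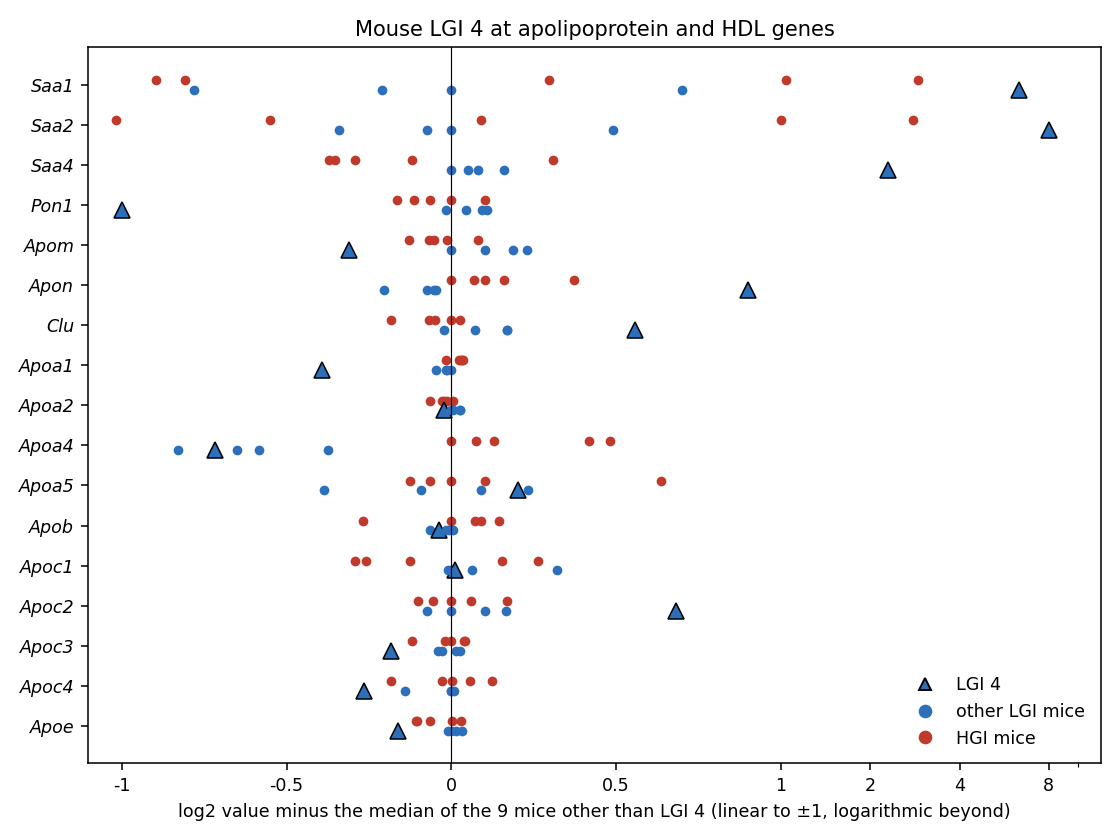
Log2 value minus the median of the 9 mice other than LGI 4 (x axis, linear to 1 unit and logarithmic beyond) for the 10 apolipoprotein genes and 7 further genes of HDL or lipoproteins; triangles are LGI 4 and circles the other mice. LGI 4 stands above all mice at Saa1, Saa2, Saa4 and Apoc2, below all at Pon1 and Apoa1, and among the LGI mice at the brighter Apoa4 probe set.

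Which members varied together among mice of a diet was described with values centred on each diet mean, in 45 pairs over 10 mice. Pearson's r was above 0 in 32 pairs, with a median of 0.183. No pair passed after adjustment over the 45 (0 by Pearson and 0 by Spearman, exact permutation within diets, with 8 pairs at an unadjusted Pearson p under 0.05). The pair with the smallest p was Apoa1 with Apoc4 (r = 0.726, exact permutation p = 0.00250, adjusted p = 0.113, and rho = 0.709, exact permutation p = 0.00326, adjusted p = 0.147). It stood at 0.909 without LGI 4 and LGI 3, the mice farthest from the median of Apoa1. The strongest r was that of Apoa1 with Apoc2 (r = -0.885, exact permutation p = 0.0973, adjusted p = 0.324, and rho = -0.636, exact permutation p = 0.0833, adjusted p = 0.643). It was 0.089 without LGI 4 and LGI 3 and -0.621 without HGI 1 and LGI 4, so its size depended on which mice were left out. Apoa2 with Apoc3 went from 0.802 (exact permutation p = 0.0137, adjusted p = 0.237, with rho 0.673, p = 0.0476 and adjusted p = 0.535) to 0.190 without HGI 1 and LGI 4. Apoa4 gave r from -0.597 (Apoc1) to 0.60 (Apoa2) with the other members, with exact permutation adjusted p-values from 0.324 to 0.908.

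**Figure D5:**
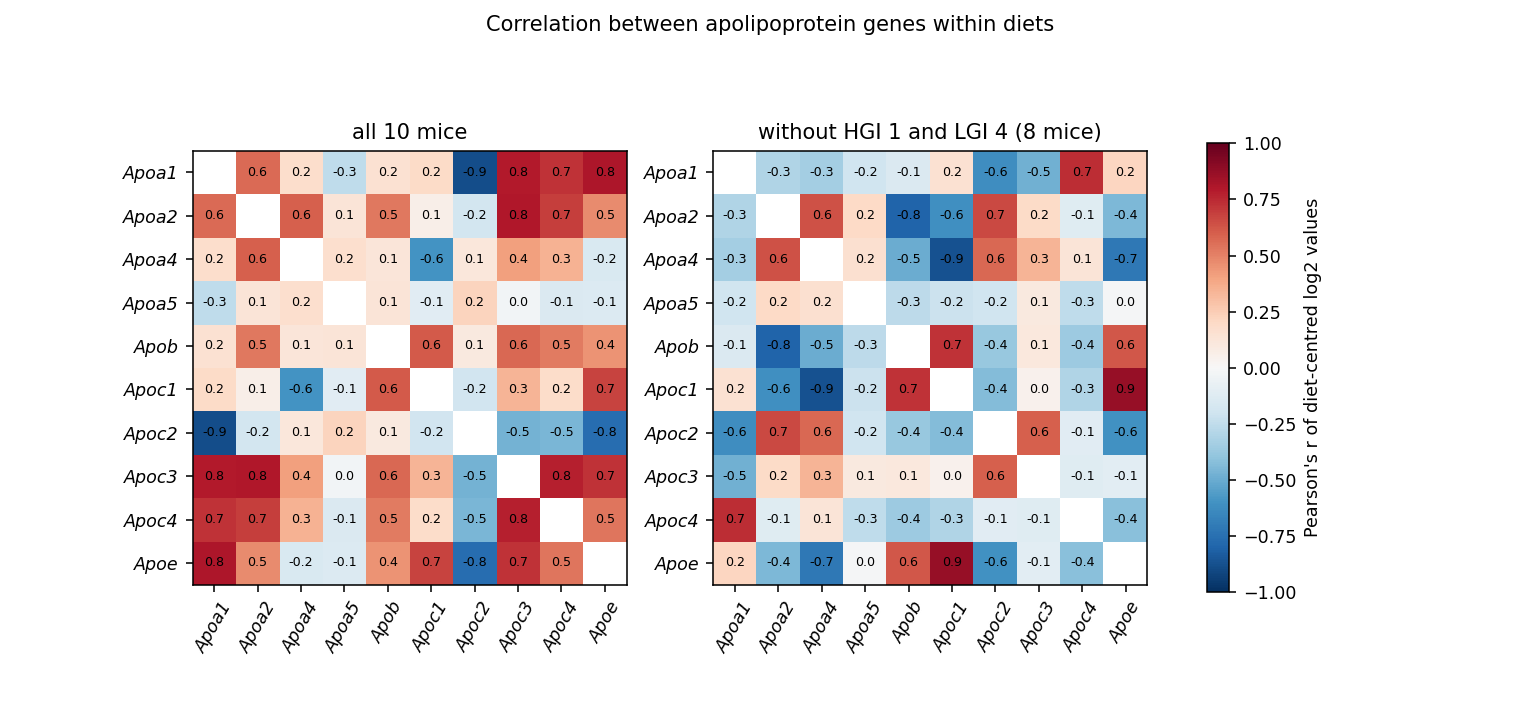
Pearson's r between the diet-centred log2 values of each pair of the 10 genes, over all 10 mice (left) and without HGI 1 and LGI 4 (right); colour runs from -1 to 1. Positive values among Apoa1, Apoa2, Apoc3, Apoc4 and Apoe on the left, such as 0.8 for Apoa2 with Apoc3, are smaller or negative on the right (0.2 for the same pair), except Apoa1 with Apoc4 (0.7 on both sides).

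Among proteins that build, remodel or clear lipoproteins is Pltp, the phospholipid transfer protein that passes lipid between particles and HDL. It was higher in HGI at its 2 probe sets and called at 1 of them. The dimmer one read 9.56, 9.97, 10.11, 9.94 and 9.74 in HGI and 8.90, 9.12, 8.88, 8.86 and 8.08 in LGI. The diets did not overlap, and the level rose by 1.10 ± 0.17 (SE, limma adjusted p = 0.0433). The brighter one did not overlap either and stood at 1.05 (limma adjusted p = 0.0550). Of 32 genes listed, 26 were measured, and by limma 0 passed at their brightest probe set, with 1 higher and 3 lower at an unadjusted p under 0.05, where 9.3% of all named genes lay under it in either direction. The median was -0.03, as over all genes. Scarb1, the hepatic HDL receptor, stood at -0.33 (limma adjusted p = 0.395) and Mttp, which loads lipid onto Apob, at 0.21 (limma adjusted p = 0.70). Vldlr stood at -0.44 (limma adjusted p = 0.443) but was dim, at 3.985 in HGI and 4.427 in LGI beside array medians of 3.91 to 3.97. Lipg, endothelial lipase, stood at -0.78 (limma adjusted p = 0.655). Its dimmer probe sets gave -1.08 and 0.08 (limma adjusted p = 0.27 and 0.934). The Pltp call was lost without HGI 2, HGI 3, HGI 4, HGI 5, LGI 1, LGI 2 or LGI 3 (differences from 1.04 to 1.19, limma adjusted p = 0.0602 to 0.122) and after median centring (1.10, limma adjusted p = 0.0561).

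Of 35 transcription factors listed as regulators of these genes, 32 were measured. By limma 0 passed, with 1 higher and 3 lower at an unadjusted p under 0.05 (9.3% of all named genes), and the median was -0.09 beside -0.03 over all genes. Creb3l3, or CREBH, a liver factor that drives Apoa4 and other lipid genes, stood at -0.40 ± 0.15 (SE, limma adjusted p = 0.551), and at -0.30 without LGI 4. Hnf4a, which acts on most apolipoprotein genes, stood at -0.11 (limma adjusted p = 0.819) and at 0.36, 0.01 and 0.11 at its dimmer probe sets. Ppara, a lipid-sensing nuclear receptor, stood at 0.10 (limma adjusted p = 0.944). The others with the smallest p were Nr2f2 (-0.29), Ppard (0.34), Nr1d2 (-0.42) and Onecut1 (0.62), with limma adjusted p-values from 0.508 to 0.663.

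Among 10 measured of 12 other genes listed as targets of CREBH, by limma 0 passed and 3 were higher at an unadjusted p under 0.05 (9.3% of all named genes in either direction), with a median of -0.05. Fads2 and Fads1, the desaturases of polyunsaturated fatty acids, stood at 0.59 (limma adjusted p = 0.0666) and 0.63 (limma adjusted p = 0.121), and the hormone Fgf21 at 0.64 (limma adjusted p = 0.508). Without LGI 4, Fads1 passed at 0.50 (limma adjusted p = 0.0496). Pnpla2 stood at -0.24 and Pck1 at -0.18 (limma adjusted p = 0.669 and 0.759). Of 17 measured of 19 further apolipoproteins and lipoprotein-bound proteins, by limma 0 passed, 1 was lower at an unadjusted p under 0.05 (9.3% of all named genes), and the median was -0.02. Clu stood at -0.24 (limma adjusted p = 0.624), Saa4 at -0.68 (0.721), Apol11b at 0.24 (0.672), Apol6 at 0.22 (0.748) and Apoo at -0.12 (0.829). Without LGI 4, Clu stood at -0.15 and Saa4 at -0.24. Apol11b was dim, at 2.84 in HGI and 2.61 in LGI, below the median of every array.

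Markers of other cell types were read beside these results. In whole liver, fewer cells of a type and less RNA per cell cannot be told apart. For enterocytes, which also make Apoa4 and Apob, 9 markers were measured, 5 higher and 4 lower, with a median of 0.02. The summed level (log2 of the summed linear values) was 9.70 to 10.37 in HGI and 9.37 to 10.32 in LGI. It came mostly from Fabp2 (9.78 in HGI and 9.32 in LGI, limma adjusted p = 0.655), while Vil1, Alpi, Lct, Cdx1 and Krt20 lay below the lowest array median of 3.91 and Cdx2 read 5.66 and 5.69. All 11 Kupffer cell and macrophage markers (brightest Csf1r and Clec4f) had a difference above 0, with a median of 0.28 and summed levels of 11.57 to 12.31 in HGI and 11.27 to 12.05 in LGI. So did all 8 endothelial markers (brightest Clec4g and Fcgr2b, median 0.22, 10.22 to 10.78 in HGI and 9.97 to 10.58 in LGI). The 3 measured erythroid markers had a median of 1.34, with summed levels of 8.91 to 10.30 in HGI and 7.44 to 9.35 in LGI. Alas2 stood at 1.34 (limma adjusted p = 0.262), which is that median, and Slc4a1 at 2.25 (limma adjusted p = 0.0625). Hba-a1 read 2.83 in HGI and 2.82 in LGI, below the lowest array median, with a difference of 0.02. By limma 1 of these 3 genes, Slc4a1, passed at another probe set. The part of these in the Apoa4 difference was not tested. The adipocyte markers had a median of 0.02 and summed levels of 6.90 to 8.65 in HGI and 6.56 to 7.26 in LGI, mostly from Fabp4 (1.08, limma adjusted p = 0.276), while Lep was near background. Medians were -0.07 for hepatocyte, 0.01 for stellate cell (Dcn and Rgs5), 0.02 for cholangiocyte (Krt19 and Sox9) and -0.01 for pancreatic markers (Cela1 and Prss2). Summed hepatocyte levels were 16.31 to 16.4 in HGI and 16.4 to 16.43 in LGI. Of the 6 hepatocyte markers 3 were higher (Alb 0.003, Ttr 0.03 and Fgb 0.10). The 3 lower were Cyp2e1, Cps1 and Tat, at -0.15, -0.19 and -0.26 (limma adjusted p = 0.726, 0.65 and 0.672). By limma 0 markers of the 9 lists passed at their brightest probe set, with 8 higher and 4 lower of the 55 measured at an unadjusted p under 0.05, beside 9.3% of all named genes.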

How the data were processed

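Liver RNA of 10 mice was measured on Affymetrix arrays of 45101 probe sets. Each deposited value is a log2 expression level of a probe set; RMA and R 2.6.1 stand in the list of tools from the submitters' notes, as what the authors ran. From these values 64 control probe sets were left out, and HGI was compared with LGI over the other 45037 by the linear model of limma 3.58.1 (R 4.3.3) with default lmFit and eBayes steps, no covariates and no filter, and with Benjamini-Hochberg adjustment over all of them and a threshold of 0.05. Symbols came from the platform annotation (34945 tested probe sets with 1 symbol, 932 with several, 9160 with no entry) and changed 0 times when updated through RefSeq gene IDs. The HGI and LGI groups came from the labels. Every member was described at each of its probe sets, and of each list the genes past the threshold or, up to 5, with the smallest p, with Pltp, Mttp, Creb3l3, Hnf4a and Ppara added. Lists were described by counts and medians. Of the marker lists, the 2 brightest genes are named. Pairs of genes and correlations used exact permutation over mice (14400 pairings within diets for correlations). The members and lists were chosen with earlier results of these data known. The limma procedure was tested on simulated data. Alternatives were other normalizations, filters and fits, the replicate block and leaving out arrays. Nothing in the labels says more of how the mice were separated, so p-values measure the spread between these samples. The number of arrays, 5 per diet, limits the precision.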

Additional observations from a re-analysis of the deposited data

Results flagged for a closer look

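Single mice lay far from the rest of their diet group in 7 of 30 groups of 5 mice (15 probe sets in 2 diets), where chance flags about 1 in 20. The measure is the gap to the nearest mouse divided by the range of the group. Mouse LGI 4 was the lowest of its diet at all 4 Apoa1 probe sets, with ratios of 0.881, 0.937, 0.923 and 0.860, and at Apoe, with 0.774 (14.09 against 14.24 or more). The 4 Apoa1 probe sets read the same gene and are not separate observations. HGI 1 was the lowest of its diet at the brightest Apoa1 probe set, with a ratio of 0.763, although it read 14.55 where the next mouse read 14.59. LGI 1 was the highest of its diet at Apoc1, with a ratio of 0.788 (13.35 against 13.09). No mouse was set apart in this way at Apoa4.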

How the results depend on the processing

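Apoa4 stayed between 0.79 and 0.97 under 20 alternatives and passed under 15. These used the brighter probe set except for the mean of both probe sets, which gave the 0.97 (limma adjusted p = 0.0129). The dimmer probe set stayed between 1.01 and 1.17 under 18 and passed under 17. Samples of equal number did not deviate together (correlations from -0.13 to 0.0404), so the numbers were not treated as pairs. With the replicate block the brighter one gave 0.8513 (limma adjusted p = 0.0656), 1 member probe set passed, and Apoa4 exceeded Apoa1 by 0.7367 and Apoc3 by 0.8202, where sign flips cannot go below an exact p of 0.0625. Taking 1 probe set per gene left 1 member call. Leaving out single arrays gave 0 to 2 member calls, 0.7864 to 0.9153 for Apoa4 and 0.6593 to 0.9063 for Apoa4 over Apoa5. Without HGI 1 and LGI 4, Apoa4 exceeded Apoa1 by 0.8166 and Apoc3 by 0.8436. Requantiling gave -0.3121 between the Apoa4 probe sets, which then passed (exact permutation adjusted p = 0.0397), and leaving out arrays gave -0.2751 to -0.184, of which the first, without LGI 1, passed too (exact permutation adjusted p = 0.0397).

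Signs turned only among differences that did not pass. Leaving out arrays gave -0.03216 to 0.1584 for Apoa5, -0.002972 to 0.09952 for Apob, -0.00422 to 0.0578 for Apoc3, -0.1079 to 0.1448 for Apoa1 minus Apoa5, -0.1522 to 0.05117 for Apoc3 minus Apoa5, -0.02313 to 0.2029 for Apoe minus Apoc2, -0.1105 to 0.1309 for Apoc1 minus Apoc2 and -0.00337 to 0.011 between a pair of Apoa1 probe sets (-0.01868 requantiled). The mean of both probe sets gave -0.1387 for Apob. Apoa1 minus Apoa5 was -0.06991 requantiled. Without HGI 1 and LGI 4 it was -0.1423, Apoe minus Apoc2 -0.03821 and Apoc1 minus Apoc2 -0.08754. The lipoprotein list had 1 call at its brightest probe sets with 1 probe set per gene, array weights, either filter, requantiling, the replicate block, the trended robust fit or without both arrays, and 0 to 1 leaving out single ones. The CREBH list had 1 with 1 probe set per gene, array weights, the filter at 6 and requantiling, 2 without both arrays, and 0 to 1 leaving out single ones. The cause was not tested.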
